A study of Mus musculus with 4 samples.

Results

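Cytosolic ribosomal protein genes encode the proteins of the ribosome that works in the cytoplasm. They were taken here as genes whose symbol has the form Rpl or Rps with a number, with the suffix a, x or y where there is one, or is Rplp0 to Rplp2, Rpla or Rpsa; the S6 kinase genes were kept out. The rule found 42 of the 18193 genes that the array names by a probe set of their own, with 94 probe sets in all: 20 of the large subunit, 20 of the small subunit and 2 of the stalk. The same rule matches 76 genes in RefSeq. Of the 34 others, 27 were named only by probe sets that also name further genes, and are described below as a separate set. RNA came from whole kidneys of mouse embryos (E14.5, Theiler stage 22, sex unknown), hybridised to 4 Affymetrix Mouse430_2 arrays. There were 2 wild-type arrays (strain field CD-1, 2 kidneys in each pool) and 2 arrays of Wnt4 null kidneys carrying the allele Wnt4tm1Amc (strain field 129, 12 kidneys in each pool). Wnt4 is a secreted signal needed to form the renal vesicle, the first epithelium of the nephron. Genotype, strain field and pool size differ together and cannot be told apart. Nothing in the labels ties the 2 pools of either genotype to different litters, and p-values therefore measure only the spread between these pools, which may be technical.

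Each ribosome has a small subunit, which reads the messenger RNA, and a large subunit, which joins amino acids. The stalk proteins Rplp0, Rplp1 and Rplp2 sit on the large subunit and recruit translation factors. Nearly every ribosomal protein is needed in 1 copy per ribosome, the genes are transcribed at a high rate in dividing tissue, and their messengers as a class start with an oligopyrimidine tract through which growth signalling adjusts their translation. For this reason the family is often used as a reference of high and even expression. In RNA from a whole organ, fewer cells of a type and less RNA per cell cannot be told apart.

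The start sites are shown because the tract is a feature of the family that the naming rule did not use. RefSeq promoter entries of build GRCm38.p6 were found for 37 of the 42 genes, 43 entries in all. Each line below gives 15 bases before and 15 bases after the annotated start, written 5′ to 3′ on the gene's strand, with the longest unbroken run of C and T in capitals. The genes are those past the threshold, the brightest, those whose probe sets disagreed, and Rpl7a, Rps6, Rps7 and Rpsa for comparison. Rps29, the brightest member, is without an entry in the table used.
Rpl14, chr9:120571502-120571531, plus strand: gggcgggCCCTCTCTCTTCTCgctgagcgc
Rplp0, chr5:115559452-115559481, plus strand: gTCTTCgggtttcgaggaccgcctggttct
Rps27, chr3:90213634-90213663, minus strand: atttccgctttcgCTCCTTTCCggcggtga
Rplp2, chr7:141447636-141447665, plus strand: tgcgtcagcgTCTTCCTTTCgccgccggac
Rps18, chr17:33955651-33955680, minus strand: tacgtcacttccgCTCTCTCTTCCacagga
Rps10, chr17:27635230-27635259, minus strand: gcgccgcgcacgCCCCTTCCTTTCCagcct
Rpl41, chr10:128549154-128549183, minus strand: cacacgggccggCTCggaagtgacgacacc
Rpl35, chr2:39005117-39005146, minus strand: cggccccgCCCTTTCCTCTTTCTCTCgaac
Rps9, chr7:3704026-3704055, plus strand: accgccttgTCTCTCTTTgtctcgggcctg
Rps3, chr7:99483695-99483724, minus strand: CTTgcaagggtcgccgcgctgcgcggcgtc
Rpl22, chr4:152324421-152324450, plus strand: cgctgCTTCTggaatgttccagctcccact
Rpl22, chr4:152325711-152325740, plus strand: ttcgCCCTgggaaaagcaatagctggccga
Rpl7a, chr2:26910792-26910821, plus strand: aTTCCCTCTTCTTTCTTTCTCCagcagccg
Rps6, chr4:86857353-86857382, minus strand: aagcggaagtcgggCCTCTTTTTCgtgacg
Rps7, chr12:28635939-28635968, minus strand: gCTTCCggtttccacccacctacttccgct
Rpsa, chr9:120127751-120127780, plus strand: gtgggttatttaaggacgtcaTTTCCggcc

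A run of at least 8 pyrimidines lay in this window in 17 of the 43 member entries (39.5%), against 12% of all 32851 entries of the table. The longest of the printed runs are those of Rpl7a and Rpl35, while Rps3 and Rpl41 show runs of only 3 at the annotated start. An annotated start can lie some bases away from the start used in a tissue, so a short run says only that these letters are not in this window. Over the 250 bases before the start, searched on both strands, the ETS-type core CCGGAAG was found in 34.9% of member entries and 6.91% of all entries, and the GC box GGGCGG in 46.5% and 32.7%. The E-box CACGTG was found in 11.6% against 6.02%, and the TATA-type word TATAAA in 6.98% against 12.4%. The YY1-type word AAGATGGCG was found in 1 member entry, that of Rps27, or 2.33% against 0.606%. No 2 of these words overlap in the sequences printed next. These are the 250 bases before the start of the 3 genes past the threshold, with the words above in capitals (an E-box and 2 GC boxes for Rpl14, a GC box for Rplp0 and the YY1-type word for Rps27).
Rpl14, chr9:120571267-120571516, plus strand: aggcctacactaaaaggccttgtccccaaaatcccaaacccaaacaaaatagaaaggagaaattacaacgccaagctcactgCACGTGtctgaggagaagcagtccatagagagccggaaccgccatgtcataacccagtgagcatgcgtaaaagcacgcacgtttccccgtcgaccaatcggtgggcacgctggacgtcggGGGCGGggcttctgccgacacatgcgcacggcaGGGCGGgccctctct
Rplp0, chr5:115559217-115559466, plus strand: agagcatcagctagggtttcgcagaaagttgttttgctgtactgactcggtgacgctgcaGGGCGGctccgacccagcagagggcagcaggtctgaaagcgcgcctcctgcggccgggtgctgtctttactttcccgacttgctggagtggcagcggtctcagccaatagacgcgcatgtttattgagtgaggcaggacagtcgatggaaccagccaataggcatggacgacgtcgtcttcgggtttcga
Rps27, chr3:90213649-90213898, minus strand: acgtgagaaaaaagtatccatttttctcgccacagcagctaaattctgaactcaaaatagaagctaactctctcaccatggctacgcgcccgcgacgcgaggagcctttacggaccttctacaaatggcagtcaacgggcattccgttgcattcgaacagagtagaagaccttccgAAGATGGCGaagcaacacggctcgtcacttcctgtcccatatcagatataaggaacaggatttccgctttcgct

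Pyrimidine runs in the window around the annotated start were then set beside the array values. Members without a promoter entry were left out. Whether such a run begins the messenger was not checked, so this is not a split by the tract itself. Among members with a mean signal over 3000, the 12 genes with a run of at least 8 had a median log2 difference of -0.27 (mutant minus wild-type), and the 17 without one had a median of -0.28. Both values are descriptions, and every log2 difference here is of log2(signal + 16), averaged within genotype.

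Before the family, the labels and the tissue were checked. The brighter probe set of Wnt4 read 1885 and 1770 in wild-type against 406 and 272 in mutant kidneys (limma adjusted p = 0.000196), and the other one was also lower (adjusted p = 0.000479). Of 12 embryonic kidney marker genes listed for this check, 11 had a probe set of their own, and all 11 passed the filter on low signals. Six2, the nephron progenitor factor, read 3760 and 2896 in wild-type and 3235 and 2670 in mutant kidneys, where the groups overlapped. Past the threshold 1 kidney marker fell, Pax8 (1505 and 1516 against 532 and 485), and 2 rose, the stromal gene Foxd1 (2028 and 2393 against 6938 and 6715) and Osr1 (444 and 380 against 713 and 760), with 6 of 11 at an unadjusted p under 0.05. Over all tested genes 5.82% were lower, 6.7% higher and 28.4% at an unadjusted p under 0.05. The trimmed mean signal was 500.0 on all arrays, which shows a shared scaling before deposit, and the median signal ran from 137.5 to 159.3. Skeletal muscle markers were higher in the mutant in 6 of 10 tested genes (summed signal 1873 to 2725 in wild-type and 7874 to 8515 in mutant arrays), and embryonic blood markers in 3 of 5. Their part in the results below was not tested.

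Ribosomal protein messengers were among the strongest signals on the arrays. Of the 100 brightest probe sets, 30 belonged to single members of the family and 43 more to ribosomal protein genes named together with others. The 94 member probe sets held 4.15% of the summed signal on wild-type replicate 1 and 3.77% on wild-type replicate 2. On the mutant arrays they held 3.36% (replicate 1) and 3.49% (replicate 2). The median signal over the 41 tested genes was 21869 and 19074 in wild-type and 16511 and 17478 in mutant kidneys, so both mutant arrays lay below both wild-type arrays. On the log2 scale the family's median difference was -0.27, or -17.3%, against 0.00027 over all 13432 tested genes. The large subunit had a median of -0.27 over 20 genes, the small subunit -0.28 over 19 and the stalk -0.33 over 2. The groups did not overlap, with the mutant lower, in 37 of the 41 genes, and with the mutant higher in 1. Over all tested genes the background is 28% lower and 29.1% higher. Among the 86 tested probe sets the groups did not overlap in 67 lower and 5 higher, against a background of 28% and 26.1%.

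**Figure D1:**
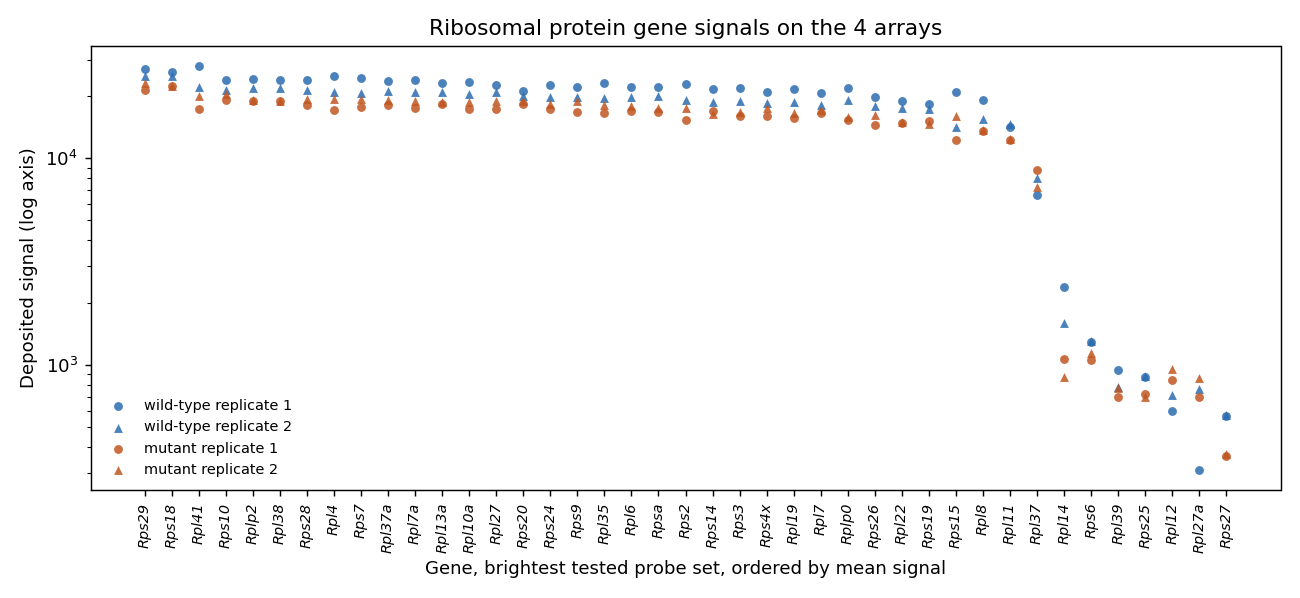
Deposited signal (log axis) of the 41 tested ribosomal protein genes at their brightest probe set on each of the 4 arrays, with wild-type in blue and mutant in orange. In 37 genes both mutant arrays lie below both wild-type arrays; Rpl12 has both mutant arrays above, and Rps15, Rpl37 and Rpl27a overlap.

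This even displacement was small for each gene. Of the 41 tested genes 3 fell in the mutant and 0 rose at an adjusted p under 0.05 (limma over all tested probe sets), where the background is 5.82% of genes lower and 6.7% higher. At an unadjusted p under 0.05 the counts were 33 lower and 1 higher, the latter being Rpl12, against 28.4% of all genes in either direction and 13.8% lower. Of the 86 tested probe sets 6 were lower and 2 higher past the threshold, against 5.39% and 5.41% of all probe sets (10.8% in both directions, and 12.5% for genes). At an unadjusted p under 0.05 there were 53 lower and 3 higher, against 25.7% of all probe sets in either direction and 13.4% lower. The share called at an adjusted p was thus close to the background. With signals as deposited, the shares at an unadjusted p and without overlap were above it. After quantile normalization 11 of the 86 probe sets had an unadjusted p under 0.05, a smaller share than the 6795 of all 27022. Of the 41 genes 6 did so. With arrays centred on their medians these counts were 23 member probe sets, 5746 probe sets in all and 11 member genes. Without wild-type replicate 2, 49 probe sets (45 lower and 4 higher) and 28 genes passed. The count of probe sets was 5 without wild-type replicate 1, 2 without mutant replicate 1 and 3 without mutant replicate 2, and that of genes was 2, 1 and 1. Without the intensity trend 0 passed, with 7 at an unadjusted p under 0.05.

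Equally bright probe sets that name no gene under the naming rule were displaced as well. Among probe sets with a mean signal over 15000, all 54 members were lower in the mutant on average, with a median of -0.28 and a range from -0.42 to -0.12. In the same range all 66 probe sets that name no gene under the naming rule were lower as well, with a median of -0.26. For the 33 of these that name 1 gene the median was -0.20. The rest name several genes or are not listed in the platform table, and what they detect was not analysed. From 10000 to 15000 the medians were -0.19 for 7 members and -0.18 for 187 other probe sets. From 5000 to 10000 they were 0.009 for 4 members and -0.09 for 700 others. The 1 member from 3000 to 5000 stood at 0.27, against a median of -0.04 for 1054 others. From 1000 to 3000 the medians were -0.01 for 5 members and 0.01 for 5188 others. The limits of these ranges were chosen after the values were seen. No test of members against other probe sets was made.

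**Figure D2:**
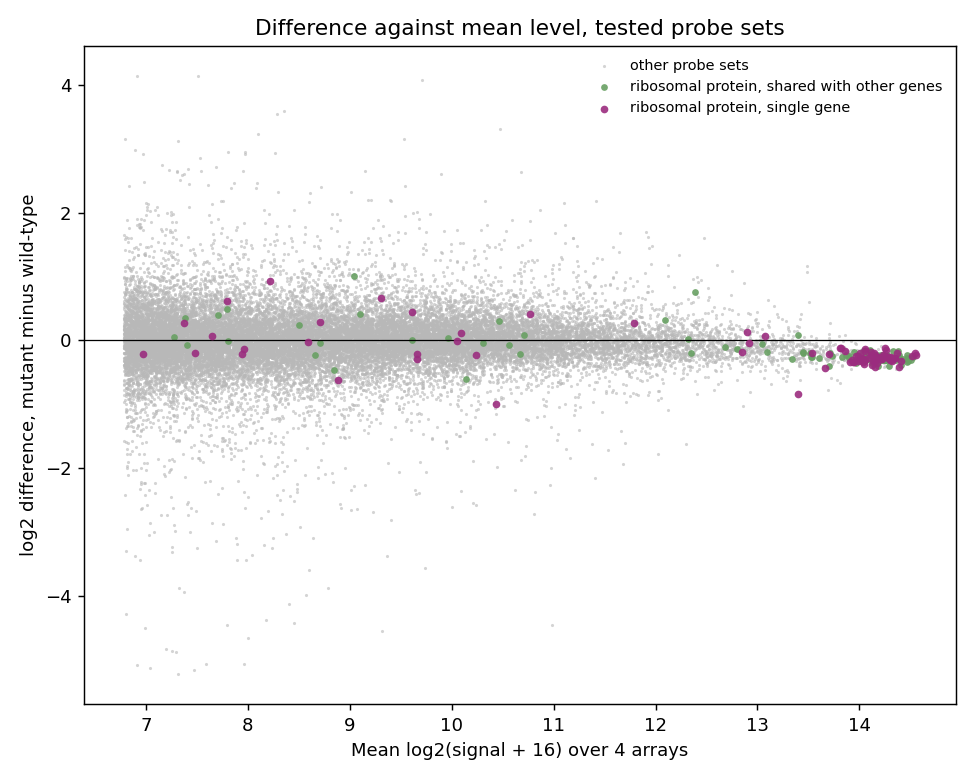
Log2 difference (mutant minus wild-type) against the mean of log2(signal + 16) over the 4 arrays for all 27022 tested probe sets, with single-gene ribosomal protein probe sets in purple, those shared with further genes in green and all others in grey. At the bright end members and other probe sets lie together below 0, and the dim members scatter on both sides of it.

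Replicates also differed at this end of the scale. Over the 54 bright members the median log2 difference was 0.17 between wild-type replicates 1 and 2, and -0.08 between mutant replicates 1 and 2. The other probe sets over 15000 gave 0.17 and -0.10 for the same pairs. Wild-type replicate 1 was the highest array at 52 of the 54 members and mutant replicate 1 the lowest at 44. The median difference between genotypes, taken on means within genotype, was larger than that between either pair of pools. By array, the median log2 value over the tested member genes was 14.42 and 14.22 in wild-type and 14.01 and 14.09 in mutant kidneys. Wild-type replicate 2 thus lay closer to mutant replicate 2 than to wild-type replicate 1.

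When the arrays were given the same distribution by quantile normalization, the median of the family became -0.0099 over 41 genes, with 21 of them lower and the rest higher. Of the 54 bright members 27 were then lower, and their differences ran from -0.16 to 0.15. The family's median was -0.13 after cyclic loess normalization, an alternative chosen after the bright end was seen. It was -0.26 when arrays were only centred on their medians. The size of the family's difference thus depended on how the arrays were scaled, and so did the sign in single genes. The family's median stayed negative in each of these scalings. After quantile normalization it was small beside the spread of the genes, and no direction is given for the family as a whole.

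**Figure D3:**
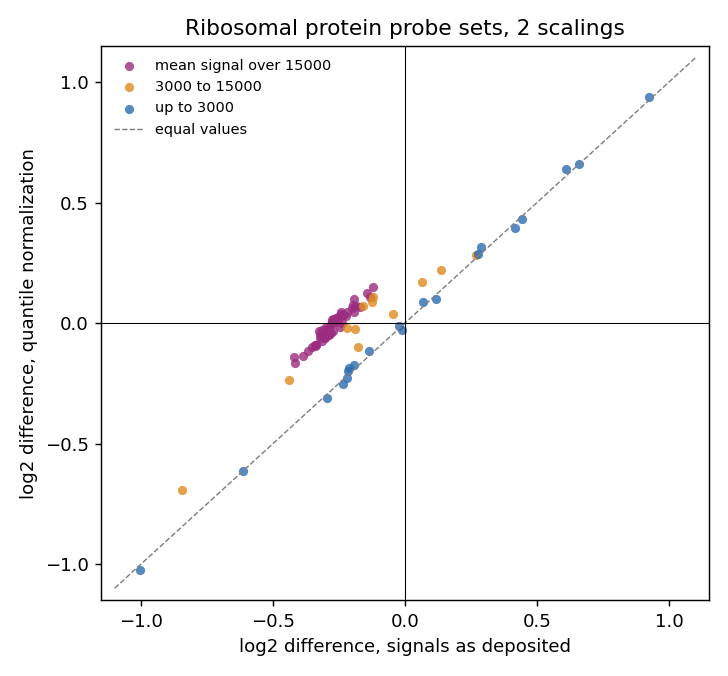
Log2 difference of the 86 tested member probe sets with signals as deposited (horizontal) and after quantile normalization (vertical), coloured by mean signal, with the dashed line where both are equal. Bright members move up to about 0, and members with a mean signal up to 3000 lie close to the line.

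Among stalk genes, Rplp0, the scaffold of the stalk, read 21775 and 19066 in wild-type and 15379 and 15806 in mutant kidneys. The groups did not overlap, and the log2 difference was -0.39 ± 0.09 (SE; limma adjusted p = 0.0282). Of the members over 15000 it was the only one called at its gene's brightest probe set. In that range 6 of the 66 probe sets that name no gene under the naming rule had a lower difference than Rplp0. So did 2 member probe sets, 1 of Rpl41 and 1 of Rps18, which did not pass. The call was lost in 9 of 16 alternatives, with adjusted p from 0.0032 to 0.197 over them; after quantile normalization the difference was -0.13 (adjusted p = 0.154), and the value was 0.0523 without wild-type replicate 1, 0.154 without mutant replicate 1 and 0.112 without mutant replicate 2. Rplp2, an acidic protein that hangs on this scaffold, read 24242 and 21791 against 18914 and 19102. Its difference of -0.27 did not pass (adjusted p = 0.0721) and was the family's median value.

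Of the large subunit, Rpl14 showed the largest difference of the family. Its single probe set, 1422128_at, read 2389 and 1587 in wild-type and 1068 and 869 in mutant kidneys. Both mutant values lay below both wild-type values, although the wild-type pair itself was far apart. The signal fell 2.01-fold (log2 difference -1.004 ± 0.19, SE, adjusted p = 0.0131), and the difference was -1.02 after quantile normalization (adjusted p = 0.0169). The call held in 15 of 16 alternatives, with adjusted p from 2.53e-05 to 0.117, and was lost without the intensity trend. The difference did not extend to the 5 brighter probe sets that name Rpl14 together with its pseudogene Rpl14-ps1: these ran from -0.28 to -0.17 and none passed (adjusted p from 0.0707 to 0.241). The brightest of them read 22622 and 20899 against 18898 and 19895.

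Rpl22, a large subunit protein that is not essential in mice and has a close relative in Rpl22l1, was measured by 3 probe sets that disagreed. At the brightest, 1453118_s_at, the signals were 18906 and 17486 in wild-type and 14734 and 15014 in mutant kidneys (log2 difference -0.29, adjusted p = 0.0521). At 1416603_at they were 14464 and 14423 against 9710 and 6636, a 1.80-fold lower level (log2 difference -0.85, adjusted p = 0.0116; -0.69 and 0.0368 after quantile normalization). That call was lost only without the intensity trend. At 1448398_s_at they were 3180 and 3222 against 4689 and 3184, so the groups overlapped (log2 difference 0.27, adjusted p = 0.339). The latter 2 probe sets list the same target transcript, and differed by 1.12 on the log2 scale. The call at 1 probe set was thus not shared by the others of the gene.

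Rpl41, the smallest ribosomal protein, came next after Rps29 and Rps18 in brightness. Its signals were 27916 and 22117 in wild-type and 17224 and 20020 in mutant kidneys, with groups that did not overlap but a wide spread within both (log2 difference -0.42, adjusted p = 0.0667). A second bright probe set gave -0.44, and 2 dim ones gave 0.29 and 0.61; none of the 4 passed. Without wild-type replicate 2 the gene passed (-0.59, adjusted p = 0.00204). Rpl35 had 6 tested probe sets. The 5 bright ones agreed, with differences from -0.34 to -0.28, and 2 of them passed by a narrow margin (adjusted p = 0.0448 and 0.0468), while the sixth, with a mean signal of 151, gave 0.28 and did not. Both calls were lost after quantile normalization (differences of -0.09 and -0.06). They were also lost without wild-type replicate 1 (adjusted p = 0.0997 and 0.0963), without mutant replicate 1 (0.130 and 0.163) and without mutant replicate 2 (0.252 and 0.287), over a range of 0.00796 to 0.658 in all. Rpl27a, 1 of the 3 dimmest members by its tested probe set, read 310 and 760 against 701 and 865 (log2 difference 0.66, adjusted p = 0.276). The lowest value was that of wild-type replicate 1: the difference was 0.03 without it and 1.28 without wild-type replicate 2 (adjusted p = 0.000308). Rpl12, chosen after its values were seen, read 600.5 and 713 against 842 and 952 (log2 difference 0.44, adjusted p = 0.0808). It was the only gene whose mutant arrays were both higher at its brightest tested probe set.

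Of the small subunit, Rps27 was the gene past the threshold. Its probe set 1460699_at read 563 and 572 in wild-type and 362 and 368 in mutant kidneys. Values agreed within each genotype and the groups stood clearly apart. Rps27 fell 1.53-fold at this probe set (log2 difference -0.62 ± 0.14, SE, adjusted p = 0.0320), and the difference was -0.61 after quantile normalization (adjusted p = 0.0337). The call was lost in 5 of 16 alternatives, with adjusted p from 0.0161 to 0.134 over them: 0.0541 without wild-type replicate 2, 0.134 without mutant replicate 1 and 0.119 without mutant replicate 2, and also with no filter and without the trend. A brighter probe set that names Rps27 together with Rps27rt read 17840 and 15771 against 13631 and 14196, with the family's common difference of -0.27 (adjusted p = 0.0884).

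Rps9 and Rps3 each had 1 probe set that was higher in the mutant past the threshold. The main probe set of Rps9, a protein bound early in small subunit assembly, read 22110 and 19807 in wild-type and 16704 and 18888 in mutant kidneys (log2 difference -0.24, adjusted p = 0.157). A dim one, 1426958_at, read 223 and 179 against 364 and 424, higher in the mutant by 1.90-fold (adjusted p = 0.0252), and the other one gave 0.12 and did not pass. Rps3, which lies at the entry of the messenger channel and also acts in DNA repair, read 21869 and 18975 against 15984 and 16734 at its main probe set (log2 difference -0.32, adjusted p = 0.0615). Its dimmer probe set, 1455600_at, read 1488 and 1493 against 2113 and 1889 (1.34-fold higher, adjusted p = 0.0327). These differences were 0.94 and 0.40 after quantile normalization, both still called. Without mutant replicate 1 they were lost (adjusted p = 0.0540 for Rps9 and 0.2505 for Rps3), as they were without mutant replicate 2 (0.134 and 0.0815) and with no filter or no trend; that of Rps3 was lost with centred arrays too (0.130). Over all alternatives adjusted p ran from 0.00254 to 0.134 for Rps9 and from 0.0238 to 0.2505 for Rps3. Which transcripts the dim probe sets detect was not analysed here.

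**Figure D4:**
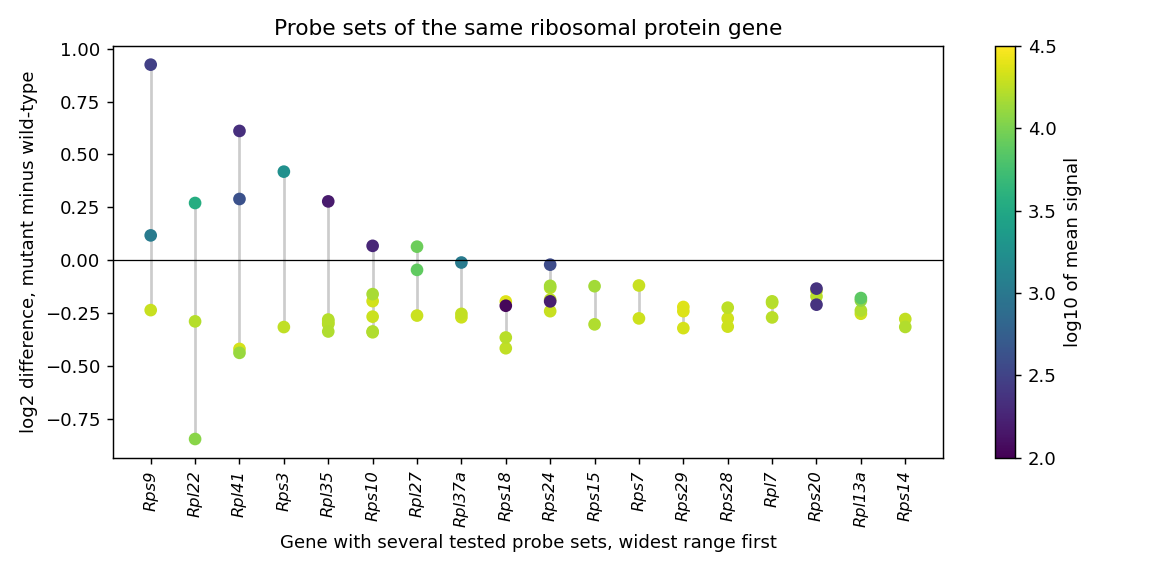
Log2 difference (mutant minus wild-type) of each tested probe set for the member genes with more than 1, coloured by the log10 of mean signal, with a line from the lowest to the highest value of a gene. The range was widest for Rps9 (1.16), Rpl22 (1.12), Rpl41 (1.05) and Rps3 (0.74), and in Rps9, Rpl41 and Rps3 the dim probe sets are those above 0.

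The brightest small subunit genes showed the common displacement. Rps29, a short zinc-binding protein, was the brightest member, with 26948 and 24991 in wild-type and 21460 and 23081 in mutant kidneys (log2 difference -0.22, adjusted p = 0.131). Rps18 read 26259 and 24865 against 22379 and 22243 (-0.20, adjusted p = 0.146), and Rps10 24011 and 21353 against 19187 and 20421 (-0.19, adjusted p = 0.206). In each of these genes the groups did not overlap and the difference did not pass. Rps7, beside Rplp2 the gene nearest the family's median, read 24544 and 20633 against 17794 and 19419 (-0.28, adjusted p = 0.127). All of them changed sign after quantile normalization, with values from 0.013 to 0.10, as did Rplp2 (0.0087). Rpsa, a small subunit protein that is also known as a laminin receptor, read 22123 and 20014 against 16742 and 17519 (-0.30, adjusted p = 0.0572). Rps16 was the only member with no tested probe set, its single one reading 1.99 to 2.84 on the 4 arrays. The 2 probe sets that name Rps16 with a pseudogene were bright, with differences of -0.30 and -0.29 that did not pass.

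Dim probe sets of the family behaved differently from bright ones. The 20 tested member probe sets with a mean signal up to 3000 had a median log2 difference of -0.02 and ran from -1.004 to 0.92. Of these, 2 were called lower (Rpl14 and Rps27) and 2 higher (those of Rps9 and Rps3). A further 8 member probe sets, with signals from 1.99 to 58.3, lay below the filter. Of the 94 member probe sets, 25 have names ending in _a_at, which recognise several transcripts of 1 gene, and 38 end in _x_at, some of whose probes match other sequences. Ribosomal protein genes have many processed pseudogenes, so such signals can mix copies. For the 25 tested _a_at probe sets the median was -0.27 and for the 37 _x_at ones -0.22. Several genes with a dim probe set of their own were bright at shared ones: 2 shared probe sets of Rpl12 gave -0.28 and -0.23, and that of Rpl27a -0.28, and none passed, while their own gave 0.44 and 0.66. The 103 tested probe sets that name a ribosomal protein gene together with further genes had a median of -0.25, with 2 called lower and 1 higher, fewer than the background of 5.39% and 5.41% of all probe sets gives. The 2 lower were those of Rps23 (26146 and 23675 against 18491 and 19401, adjusted p = 0.0209) and Rpl31 (1316 and 1444 against 917 and 880, adjusted p = 0.0104). The 1 higher was that of Rpl15, with 3909 and 4292 against 7043 and 6902 (adjusted p = 0.00112).

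Genes that make or serve ribosomes were read from lists, each described by its counts and median beside the background of 5.82% lower, 6.7% higher and 28.4% at an unadjusted p under 0.05, and the all-gene median of 0.00027. Proteins of the mitochondrial ribosome, which translates the mitochondrial genome, had a median log2 difference of -0.19 over 76 tested genes, at a median signal of 1654. Of these 8 fell (10.5%) and 0 rose, with 29 at an unadjusted p under 0.05. Mrps14 read 3544 and 3672 in wild-type and 2525 and 2586 in mutant kidneys (1.41-fold lower, adjusted p = 0.00818). Mrpl12, a protein of the mitochondrial stalk, was 1.35-fold lower (adjusted p = 0.0170), and Mrps12 1.38-fold lower (adjusted p = 0.0256). After quantile normalization the list's median was -0.21, with 10 genes lower and 0 higher, so its median moved by less than that of the cytosolic family.

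Factors that process and assemble ribosomes in the nucleolus were also lower more often than higher. Of 64 tested genes 10 fell (15.6%) and 0 rose, with 23 at an unadjusted p under 0.05 and a median of -0.16 at a median signal of 1277. Utp18, of the complex that processes small subunit RNA, read 1164 and 1211 against 768 and 773 (1.53-fold lower, adjusted p = 0.0101). Noc2l was 1.64-fold lower (adjusted p = 0.0223), and Gnl3, the nucleolar protein nucleostemin, 1.32-fold lower (adjusted p = 0.0245). After quantile normalization the median was -0.17 and 8 genes were lower. Markers of cycling cells were lower as well, with 3 of 9 past the threshold against 5.82% of all genes. Their summed signal was 49950 to 51200 in wild-type and 42093 to 42495 in mutant arrays. The median of these markers was -0.28, and -0.16 after quantile normalization, where 2 were called lower. Their part in the result was not tested.

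Translation initiation and elongation factors lay between. Of 29 tested genes 2 fell, Eif3m (4583 and 4814 against 3733 and 3703, adjusted p = 0.0340) and Eif2s2 (1.25-fold lower, adjusted p = 0.0384), and 0 rose, with 13 at an unadjusted p under 0.05. Eif5a, next by p, did not pass (adjusted p = 0.0583). Their median of -0.14 was -0.02 after quantile normalization. The other messengers known for an oligopyrimidine tract had a median of -0.11 over 15 genes, and 0.01 after quantile normalization. In that list 0 fell and 1 rose, the intermediate filament gene Vim, from 12279 and 12035 to 14749 and 14717 (adjusted p = 0.0489), with 6 at an unadjusted p under 0.05. Pabpc1 and Tpt1 did not pass (adjusted p = 0.0789 and 0.124). The lists share members, Pabpc1 among them.

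RNA polymerase I, which transcribes ribosomal RNA, and the regulators of ribosome production had medians near that of all genes. Of 15 genes of the polymerase and its factors 0 passed in either direction with limma, 3 had an unadjusted p under 0.05 (Taf1d, Taf1a and Twistnb, all higher by 1.18-fold to 1.41-fold), and the median was 0.05. The count at an unadjusted p was below the background share of 28.4%. Of 25 regulators, 0 passed, 7 had an unadjusted p under 0.05, a share near that background, and the median was 0.02. The lowest p-values were those of the S6 kinase genes Rps6ka6 (1.26-fold lower, adjusted p = 0.0576) and Rps6ka3 (1.24-fold lower, adjusted p = 0.0653) and of Eef2k (1.37-fold higher, adjusted p = 0.0674). After quantile normalization Rps6ka6 passed (adjusted p = 0.0476).

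**Figure D5:**
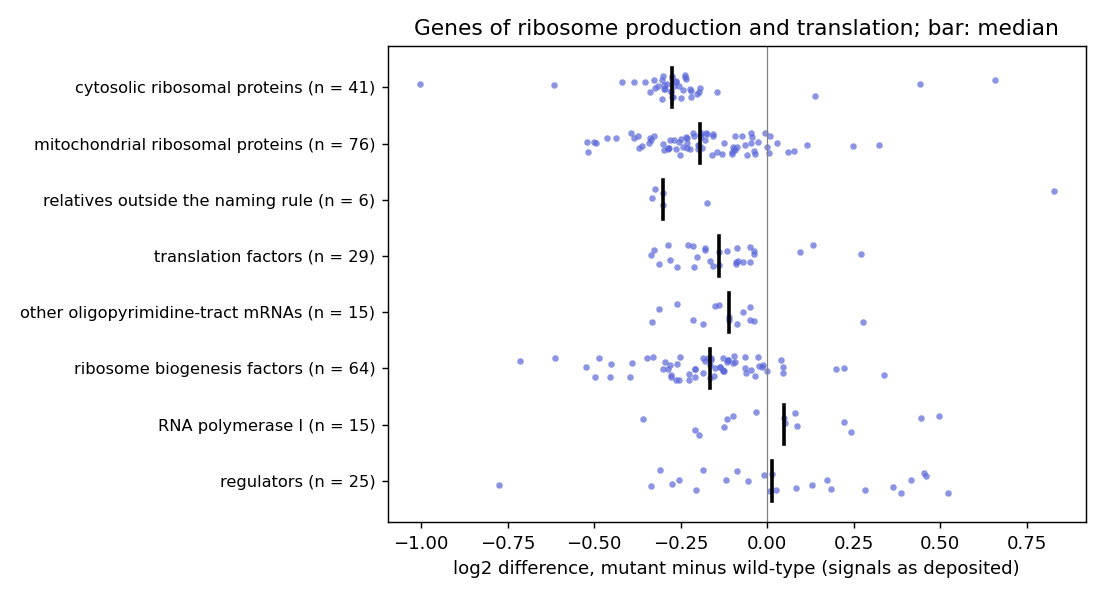
Log2 difference (mutant minus wild-type, signals as deposited) of each tested gene in the cytosolic ribosomal protein family and in 7 related lists, with a bar at the median. Medians are -0.27 for the cytosolic family, -0.19 for mitochondrial ribosomal proteins and -0.16 for biogenesis factors, and 0.05 and 0.02 for RNA polymerase I and the regulators.

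Relatives of the family that the naming rule leaves out were few. Of 6 tested, 5 were lower in the mutant on average, with a median log2 difference of -0.30 for the list, and -0.08 after quantile normalization. At an adjusted p under 0.05, 0 fell and 1 rose, with 5 at an unadjusted p under 0.05. Rps4l, a copy of Rps4x, rose from 1723 and 2191 to 3444 and 3482 (1.78-fold, adjusted p = 0.00412), and stood at 0.83 after quantile normalization. Its relative Rps4x, a member chosen after its values were seen, read 20984 and 18508 against 16045 and 17478 (log2 difference -0.23, adjusted p = 0.149). Rps27l read 9472 and 8924 against 7794 and 6836 (log2 difference -0.33, adjusted p = 0.0531). Fau, whose product includes a small subunit protein, read 16349 and 14195 against 11458 and 12918 (-0.32, adjusted p = 0.0754). In both the groups did not overlap and the difference did not pass.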

How the data were processed

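The values were 1 signal intensity per probe set on a linear scale, as deposited by the authors for each of the 4 arrays. GCOS is the only tool in the submitters' processing notes, without a version, and the summary algorithm is not given in the sources used here. Per the labels' protocols RNA was amplified in 1 round and labelled with biotin. Signals were transformed to log2(signal + 16), which understates differences of low signals. The 64 control probe sets and the lowest 40% by mean level were left out, which kept 27022 of 45101 (lowest mean level 94.2). limma 3.58.1 in R 4.3.3 (lmFit, eBayes with intensity trend) compared mutant with wild-type, two-sided, with Benjamini-Hochberg adjustment over all tested probe sets. An exact test of 2 against 2 arrays cannot go below 0.333. The number of arrays limits the precision.

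Genes were named from the platform table through gene identifiers of RefSeq (GRCm38.p6), and 42 of 42 members matched. A gene stands by its brightest tested probe set. Members and lists were chosen with earlier results of these data known. Named members were those called, the 5 brightest and 3 dimmest, the stalk genes and Rpsa, the 4 widest between probe sets, the 2 nearest the median and those not tested. In each list they were up to 3 genes with the smallest p. No set test was run. Alternatives were quantile normalization, median centring, pseudocounts of 1 and 64, no filter and a 60% filter, no trend, a robust fit, no _x_at or _s_at probe sets, a replicate block, gene means, leaving out each array, and cyclic loess (added after seeing the data).

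Macrophage markers gave 0 of 7 tested genes past the threshold with limma, with 1 at an unadjusted p under 0.05, and adrenal cortex markers gave 1 of 3, lower in the mutant, against a background of 5.82% of genes lower and 6.7% higher.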

Additional observations from a re-analysis of the deposited data

How the results depend on the processing

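Of the ribosomal protein probe sets, 5 passed the threshold after quantile normalization and 5 after cyclic loess, 4 with arrays centred on their medians, 2 with no filter, 0 without the intensity trend (7 at an unadjusted p under 0.05 in limma) and 13 with the robust fit, against 8 in the analysis reported. When 1 array was left out the count ran from 2 to 49. Of the genes, 1 passed with no filter, 0 without the trend (4 at an unadjusted p under 0.05), 7 with the robust fit, 7 without _x_at and _s_at probe sets and 9 with the mean over probe sets, against 3, and 1 to 28 when 1 array was left out. Over all probe sets 858 passed without the trend, and 1572 to 4008 when 1 array was left out, against 2920. The family's median was -0.0099 after quantile normalization and -0.13 after cyclic loess, and -0.35 to -0.19 when 1 array was left out. Signs turned after quantile normalization for Rps29 (0.044), Rps18 (0.073), Rps10 (0.10), Rplp2 (0.0087), Rps9 (0.036) and Rps7 (0.013). They turned without _x_at and _s_at probe sets for Rpl41 (0.61) and Rps9 (0.92), where dimmer probe sets stood for these genes, and with the mean over probe sets for Rpl41 (0.011), Rps9 (0.27) and Rps3 (0.051). The cause was not tested for the others. With the replicate number as a block 5 ribosomal protein probe sets passed, and the lost calls were those of Rplp0 and both of Rpl35. The numbers come from the labels and are shared only as numbers: deviations of arrays with the same number correlated at -0.017 over all tested probe sets. With 2 arrays a genotype, a difference of the size seen across the family mostly did not pass for a single gene.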
